A study of Ogataea angusta with 8 samples.

Results

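The 101 features described here are array features of the yeast Hansenula polymorpha (listed as Ogataea angusta) whose xylose-to-glucose ratio was higher in microaerobic than in aerobic cells. They were selected on measured values: of the 5837 KH- features, 5355 have a ratio on all 8 arrays, and a feature is a member where the plain mean of its 4 aerobic ratios minus the plain mean of its 4 microaerobic ratios is at most -0.6. Below, the difference is given as microaerobic minus aerobic, so members have a difference of at least 0.6. They make up 1.89% of the complete features, and 58 complete features meet the mirrored limit in the other direction. The difference between the conditions is what chose the members, so it is described and supports nothing by itself.

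All RNA came from strain DL-1-L. Microaerobic cultures had 100 ml of medium in 250 ml flasks shaken at 100 rpm, and aerobic cultures had 50 ml in 500 ml flasks shaken at 180 rpm. Both started at an optical density of 0.3 and were held at 37 °C. Flask, volume and shaking changed together, so they cannot be told apart as parts of the oxygen condition. Each array carried RNA of xylose-grown and of glucose-grown cells of 1 condition, with the xylose RNA in Cy5 on 2 arrays (cy5-1 and cy5-2) and in Cy3 on 2 arrays (cy3-1 and cy3-2), for 4 microaerobic and 4 aerobic arrays. The labels do not say that the arrays stand for separate cultures, so errors and p-values describe the spread between arrays, which may be technical.

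Every array gives a ratio between sugars, so a member with a higher microaerobic ratio need not have a higher transcript level in microaerobic cells. A positive ratio likely means a higher level on xylose, because xylose RNA is the first channel of every array, but neither this direction nor the log base is stated. With glucose as the numerator, all signs and classes below would turn round. Folds take the base to be 2. None of the 5837 identifiers, members included, matched any of the 5442 genes in the RefSeq table of assembly ASM1920747v1, so no gene, function or sequence can be given. The labels define no marker by which the oxygen state of the cultures could be checked on these features.

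As background, yeasts that use xylose reduce it to xylitol, oxidise xylitol to xylulose and phosphorylate that sugar into the pentose phosphate pathway. The reducing step commonly draws on NADPH and the oxidising step on NAD+, so the balance of these cofactors depends on respiration and thereby on oxygen. H. polymorpha is a methylotrophic, heat-tolerant yeast that can ferment xylose to ethanol when oxygen is scarce. Which of the members, if any, take part in these steps is not known from the tables used here.

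Most members had a positive ratio in microaerobic cells and a ratio near 0 or below it in aerobic cells. The median member had a log2 ratio of 0.57 in microaerobic and of -0.13 in aerobic cells, where the median of all complete features was -0.02 in each condition. The differences ran from 0.60 to 2.01 on the log2 scale, with a median of 0.755. A difference of at least 1, which is 2-fold on a log2 scale, was reached by 18 members and one of at least 1.5 by 7. The members closest to the limit had differences of 0.60, 0.6025 and 0.6075, and the closest features outside it 0.595, 0.595 and 0.5925, so the limit does not fall in a gap. Another 4 features met the same difference on fewer than 8 values and are not members.

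**Figure D1:**
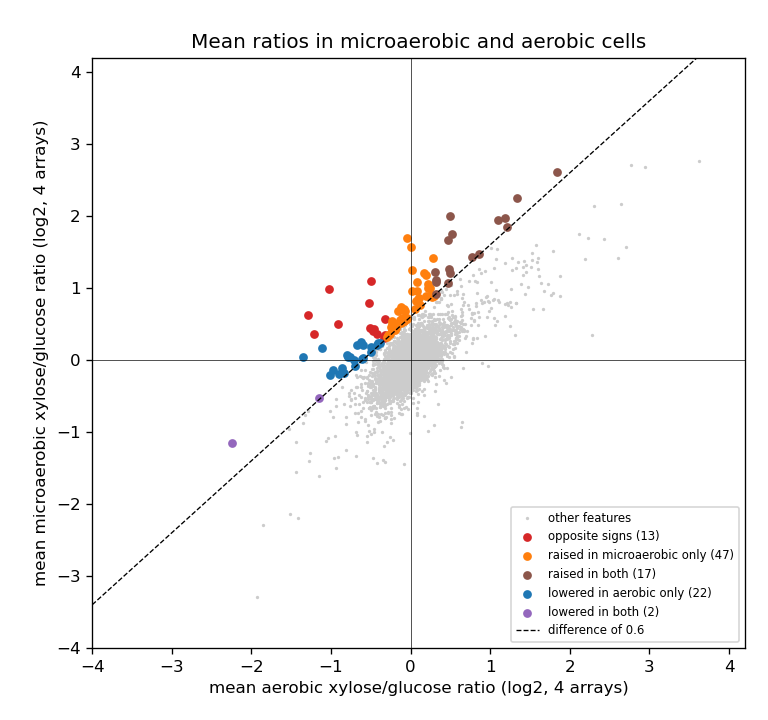
Mean log2 ratio of each complete feature in microaerobic cells (vertical axis, 4 arrays) against aerobic cells (horizontal axis, 4 arrays), with the members coloured by class and the dashed line at a difference of 0.6. The members lie above the line because they were chosen that way, and the class raised in microaerobic cells only holds 47 of the 101.

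With a limit of 0.3 on either side of 0, which is the rule's 0.6 shared equally between the conditions, every member falls into exactly 1 of 5 classes. In 13 members the signs were opposite, with a mean of at least 0.3 in microaerobic and at most -0.3 in aerobic cells. In 47 the ratio was raised in microaerobic cells only, with an aerobic mean inside the limits. In 17 it was raised in both conditions and more so in microaerobic cells. In 22 it was lowered in aerobic cells only, with a microaerobic mean inside the limits, and in 2 it was lowered in both and more so in aerobic cells. Class names refer to these limits on the means and not to a test.

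**Figure D2:**
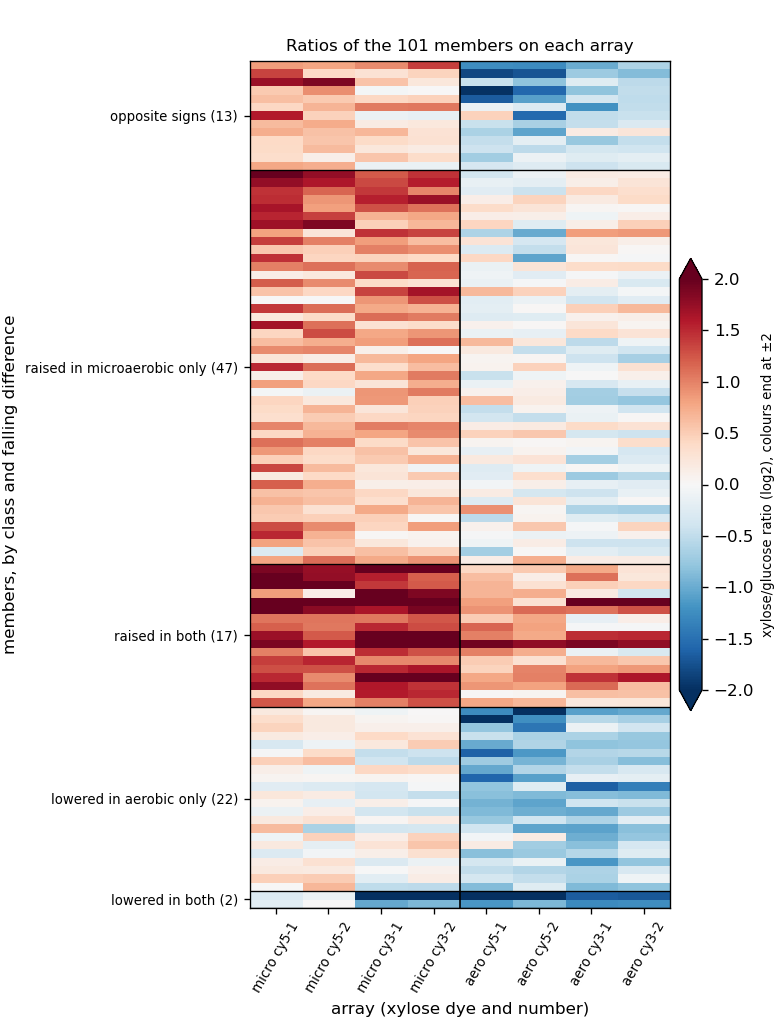
Log2 ratio of all 101 members (rows, by class and by falling difference) on the 4 microaerobic arrays and the 4 aerobic arrays (columns, each named after its xylose dye and its replicate number), with colours ending at ±2. The microaerobic side is mostly red in the 3 upper classes, and the aerobic side is mostly blue in the class lowered in aerobic cells only.

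The 13 members of opposite signs included 4 of the 5 largest differences and had the highest class median. Their means ran from 0.31 to 1.095 in microaerobic cells and from -1.285 to -0.3175 in aerobic cells, and their median difference was 0.9525, against 0.755 for all members. Feature KH-2901 has the largest difference of all 101 members. In microaerobic cells its log2 ratio was 0.83 on array cy5-1, 0.79 on cy5-2, 0.94 on cy3-1 and 1.38 on cy3-2. On the aerobic arrays, in the same order, the ratios were -1.24, -1.26, -0.99 and -0.62. All microaerobic values lay above 0 and all aerobic values below it, and the groups did not overlap.

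For KH-2901 the mean was 0.985 ± 0.27 over the microaerobic arrays and -1.03 ± 0.30 over the aerobic ones (SD, n = 4 each), a difference of 2.01, or 4.03-fold between the ratios. The difference was 2.06 where the xylose RNA carried Cy5 and 1.965 where it carried Cy3, so both orientations gave nearly the same size. Next by size in this class was a member at 0.62 ± 0.49 (microaerobic) and -1.285 ± 0.57 (aerobic; SD, n = 4 each). Its difference varied more between the dye orientations, at 2.65 in Cy5 and 1.165 in Cy3. Altogether 9 of these 13 members had 4 positive microaerobic and 4 negative aerobic values. In 12 all microaerobic values lay above all aerobic ones, against 3.44% of complete features. The rule and the class limits favour both counts, which are descriptions only. The median of the class on aerobic array cy5-2 was -0.81, lower than the -0.47, -0.48 and -0.47 of arrays cy5-1, cy3-1 and cy3-2.

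The 47 members raised in microaerobic cells only had means from 0.315 to 1.695 in microaerobic cells, with a median of 0.71, and a median of -0.0725 in aerobic cells. In 43 of them all 4 microaerobic values were positive, and in 39 the 4 aerobic values had mixed signs. Feature KH-2456 has the largest difference in this class. Its microaerobic log2 ratios were 2.34, 1.76, 1.23 and 1.45 on arrays cy5-1, cy5-2, cy3-1 and cy3-2, and its aerobic ones -0.36, -0.12, 0.16 and 0.15. The groups did not overlap, and in both conditions the arrays of 1 dye lay on 1 side of those of the other, with Cy5 higher in microaerobic and lower in aerobic cells.

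KH-2456 averaged 1.695 ± 0.48 under microaerobic and -0.04 ± 0.25 under aerobic conditions (SD, n = 4 each), or 3.33-fold between the ratios. Its difference was 2.29 in Cy5 and 1.185 in Cy3. The second member by size averaged 1.565 ± 0.18 under microaerobic and 0.005 ± 0.21 under aerobic conditions (SD, n = 4 each). Its values ran from 1.32 to 1.76 in microaerobic cells and from -0.19 to 0.25 in aerobic cells. Of the 47, 10 had a microaerobic mean of at least 1, and the median difference of the class was 0.705.

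The 17 members raised in both conditions had the highest ratios. Their microaerobic means ran from 0.9225 to 2.61, with a median of 1.475, and 16 were at 1 or more. Their aerobic means ran from 0.3025 to 1.84, with a median of 0.4975, and 5 were at 1 or more. The member with the largest difference in this class had microaerobic values of 1.88, 1.74, 2.17 and 2.20 and aerobic values of 0.41, 0.52, 0.76 and 0.27 on arrays cy5-1, cy5-2, cy3-1 and cy3-2. Its means were 2.00 ± 0.22 and 0.49 ± 0.21 (SD, n = 4 each) in microaerobic and aerobic cells, and the values did not overlap.

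The groups of values stayed apart in 7 of these 17 members and overlapped in the other 10. Over all complete features 3.44% had all microaerobic values above all aerobic ones, and the rule favours such separation. The member with the highest microaerobic mean of all 101 had 1.89, 1.59, 3.38 and 3.57 in microaerobic cells and 1.93, 1.77, 1.88 and 1.77 in aerobic cells, in the same order of arrays. Its microaerobic values stood above its aerobic ones only on the Cy3 arrays, and its difference was -0.11 in Cy5 and 1.65 in Cy3. Another member of this class showed the reverse, with a difference of 1.75 in Cy5 and 0.06 in Cy3.

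The 22 members lowered in aerobic cells only had means from -1.35 to -0.385 in aerobic cells, with a median of -0.705, and a median of 0.04 in microaerobic cells. In 20 of them all 4 aerobic values were negative, and in 16 the 4 microaerobic values had mixed signs. Feature KH-6356 has the largest difference in this class. Its log2 ratios were 0.20, 0.04, -0.09 and 0.00 on microaerobic arrays cy5-1, cy5-2, cy3-1 and cy3-2. On the aerobic arrays they were -1.26, -2.03, -1.08 and -1.03, all below every microaerobic value.

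KH-6356 averaged 0.04 ± 0.12 under microaerobic and -1.35 ± 0.46 under aerobic conditions (SD, n = 4 each), or 2.62-fold between the ratios. Its difference was 1.765 in Cy5 and 1.01 in Cy3. The second member by size stood at 0.16 ± 0.15 under microaerobic and -1.11 ± 0.67 under aerobic conditions (SD, n = 4 each). Its aerobic values were -2.01 and -1.22 on the Cy5 arrays and -0.56 and -0.66 on the Cy3 arrays, so the Cy5 arrays lay further below 0 than the Cy3 arrays. In 14 of the 22 the values of the conditions did not overlap, against 3.44% of complete features, and the rule favours such separation.

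The 2 members lowered in both conditions were the only ones with a microaerobic mean of -0.3 or less. Feature KH-0767 had microaerobic log2 ratios of -0.27 and -0.14 on arrays cy5-1 and cy5-2 and of -2.10 and -2.08 on arrays cy3-1 and cy3-2. Its aerobic ratios were -2.97 and -2.61 on the Cy5 arrays and -1.67 and -1.70 on the Cy3 arrays. All 8 values were negative, and the groups overlapped, since the Cy3 values were lower in microaerobic than in aerobic cells. The means were -1.15 ± 1.09 under microaerobic and -2.24 ± 0.65 under aerobic conditions (SD, n = 4 each). The difference of 1.09 was thus made of 2.585 in Cy5 and -0.405 in Cy3. The other member of this class averaged -0.53 ± 0.51 and -1.145 ± 0.17 (SD, n = 4 each) in microaerobic and aerobic cells, with a difference of 0.93 in Cy5 and 0.30 in Cy3.

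**Figure D3:**
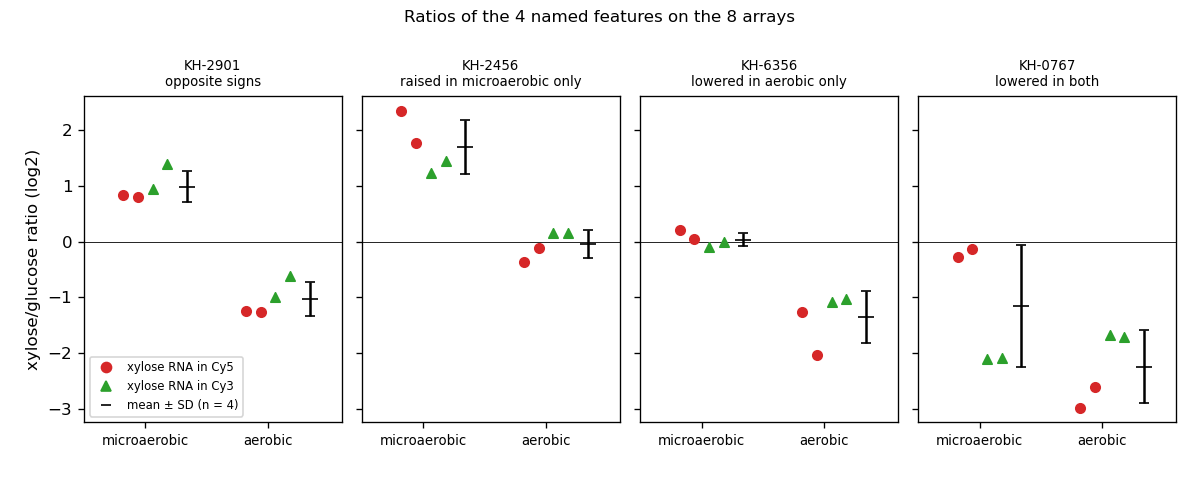
Log2 ratio of the 4 identified features on each of the 4 microaerobic (left) and 4 aerobic (right) arrays, with circles for xylose RNA in Cy5, triangles for Cy3 and a bar for mean ± SD (n = 4). The conditions stand apart in KH-2901, KH-2456 and KH-6356, while the values of KH-0767 overlap, with Cy5 arrays highest in microaerobic and lowest in aerobic cells.

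The values of the conditions did not overlap in 62 of the 101 members (61.4%), where 3.44% of complete features had all 4 microaerobic values above all 4 aerobic ones. In 86 members (85.1%) each microaerobic array lay above the aerobic array of the same dye and number, against 11.4% of complete features. Both counts use the contrast that chose the members and are descriptions only. Ratios were also fitted with limma in 1 model over all 8 arrays, in which a feature counts as called at an adjusted p under 0.05 over the 5674 features that had 2 or more values per condition.

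That model called 35 of the 101 members for a higher microaerobic ratio, where 0.687% of tested features were so called. It called 4 further features that are not members, 3 of them complete with a smaller difference. The median residual SD, which enters the call itself, was 0.275 in called members and 0.396 in the others.

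The count of 35 moved with the arrays and the model, and the share of all tested features called in the same direction moved with it. Leaving out microaerobic array cy5-1 gave 18 members (0.318% of tested features), and leaving out cy5-2 of that condition 19 (0.371%). Without aerobic array cy3-1 it was 23 (0.442%), and without aerobic array cy3-2 it was 23 (0.407%). A term for the dye gave 71 members, with 1.8% of tested features. Averaging the arrays of the same number over the dye swap gave all 101, with 3.49%, and terms for the dye and for dye by oxygen gave 97, with 3.56%. The averaging leaves 2 values per condition and takes disagreement between the dyes out of the spread, as the dye-by-oxygen term does. Members whose difference changed sign with the dye were thus called too after averaging. The labels do not say that arrays of the same number share RNA.

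Within microaerobic cells, 70 members were called with a positive ratio (9.76% of tested features) and 2 with a negative one (10.7% of tested features). Within aerobic cells, 11 were called positive (6.08% of tested features) and 29 negative (5.71% of tested features). By these calls 51 members were positive in microaerobic cells and not called in aerobic cells (5.46% of tested features). In 19 the ratio was negative in aerobic cells and not called in microaerobic cells (2.17%), and 8 were called with opposite signs (0.141%). A further 11 were called positive in both conditions (4.16%), 2 negative in both (3.4%) and 10 in neither (75.5%). Each mean is part of the rule, so these counts describe the members and nothing is read from them.

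The rule did not use the mean over both conditions as such. Where all 8 values are present, this mean is orthogonal to the difference as a contrast. It was called positive for 42 of the 101 members (41.6%), against 12.6% of tested features, and negative for 16 (15.8%), against 15.4%. The share with a positive mean response was above the background, and the share with a negative one was near it. Of the 42 positive calls, 25 were members raised in microaerobic cells only and 17 were raised in both conditions. A ratio that moves in 1 condition alone also moves the mean over both, so the rule bears on these shares. They are descriptions only. In called members the median of the mean over both conditions was 0.66 where positive and -0.48 where negative, and the remaining 43 members were not called. Under the alternatives run, both counts stayed within 1.5 times of these, and the shares of tested features moved too. Positive calls numbered 39 to 52, with 10.2% to 16.8% of tested features. Negative calls numbered 12 to 23, with 11.4% to 20.2% of tested features.

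Among the identified features, the mean over both conditions was positive for KH-2456, at 0.83 ± 0.11 (SE, limma adjusted p = 1.3e-04). For KH-6356 it was -0.66 ± 0.10 (SE, limma adjusted p = 3.5e-04) and for KH-0767 -1.69 ± 0.23 (SE, limma adjusted p = 1.7e-04). For KH-2901 it was -0.02 ± 0.09 (SE, limma adjusted p = 0.88), as the ratios of the conditions nearly cancelled. None of the 13 members of opposite signs was called for this mean, and all 17 raised in both conditions were. Since the classes were cut on both means, these splits follow in part from the classes. The class limits also fix the sign of the mean over both conditions for KH-2456, KH-6356 and KH-0767. Their p-values are therefore descriptions of selected features.

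Members varied more between arrays than most features. The median residual SD, which the rule did not set directly, was 0.351 in members and 0.191 over all complete features, and 93 of the 101 members lay above the latter value. The part of this wider spread in the choice of members was not tested.

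The difference was at least 0.6 in both dye orientations in 29 members (28.7%), where 0.542% of complete features, the same 29, met it in both. Every complete feature that meets it in both is a member by the rule, so this comparison was fixed in advance. In 41 members the difference reached 0.6 in Cy5 arrays and not in Cy3 arrays, and in 31 in Cy3 and not in Cy5. Among all complete features, whatever the other orientation, 179 reached it in Cy5 arrays and 151 in Cy3 arrays. The difference was below 0 in 1 orientation in 8 members, 7 of them in Cy5 and 1, KH-0767, in Cy3. Of the 29 members that met the limit in both orientations, 27 had values that did not overlap (3.44% of complete features). Among the 35 called for the difference (0.687% of tested features) were 24 of these 29. Both counts use the contrast that chose the members. By class, the 29 that met the limit in both orientations were 8 of 13 with opposite signs and 12 of 47 raised in microaerobic cells only. The rest of the 29 were 3 of 17 raised in both and 6 of 22 lowered in aerobic cells only, with 0 of 2 lowered in both.

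Whether the difference itself varied between the dye orientations was tested with a term for dye by oxygen. As a contrast, this term is orthogonal to the difference. This test was chosen after the dye split had been seen. The labels do not say whether Cy5 and Cy3 arrays share RNA, so dye and RNA cannot be told apart. The rule averages both orientations, so a feature with a large difference in only 1 of them can pass it. The share called is therefore not free of the selection. The term was called for 23 members (22.8%), against 1.55% of tested features. Its size, the difference in Cy5 arrays minus that in Cy3 arrays, ran from 0.985 to 2.99 in absolute value among these 23, with a median of 1.43. The Cy5 difference was the larger one in 12 and the Cy3 difference in 11. Among the 23 were 7 of the 8 members whose difference changed sign between orientations. By the rule, the differences of both orientations average at least 0.6. A member below 0 in 1 orientation therefore has a large term, and this overlap was largely fixed in advance. Of the 23, 3 were also among the 35 called for the difference (0.687% of tested features). The fit for the difference has no dye terms, so a large dye-by-oxygen gap widens its residual SD and makes that call less likely. Nothing is read from this overlap.

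The dye-by-oxygen term was largest in KH-0767, at 2.99 ± 0.23 (SE, limma adjusted p = 1.3e-05). It was 0.095 ± 0.26 in KH-2901 (SE, limma adjusted p = 0.95), 1.105 ± 0.27 in KH-2456 (SE, limma adjusted p = 0.060) and 0.755 ± 0.29 in KH-6356 (SE, limma adjusted p = 0.27). The count of 23 fell when 1 Cy3 array was left out, as did the share over all tested features. It was 10 members (0.41% of tested features) without microaerobic array cy3-1 and 9 (0.339%) when cy3-2 of that condition was left out. For the aerobic arrays it was 8 (0.356%) without cy3-1 and 10 (0.446%) without cy3-2. Leaving out 1 Cy5 array gave 16 to 31 members, with 1.01% to 3.19% of tested features.

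A dye term common to both conditions was called for 9 members (8.91%), against 3.75% of tested features. Its size ran from 0.485 to 1.27 in absolute value. The ratio was higher in Cy5 for 3 of them (1.38% of tested features) and higher in Cy3 for 6 (2.37%). The count was 5 after quantile normalization, with 2.01% of tested features. It was 5 (2.25%), 4 (1.75%) and 5 (2.15%) without microaerobic arrays cy5-1, cy3-1 and cy3-2, in that order. Without aerobic array cy5-1 it was 14 (3.93%), and without aerobic array cy3-1 it was 5 (2.29%). None of the 9 was among the 23 called for dye by oxygen (1.55% of tested features). The dye call came from a fit without the dye-by-oxygen term, so a large such term makes a dye call less likely. Nothing is read from this lack of overlap.

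**Figure D4:**
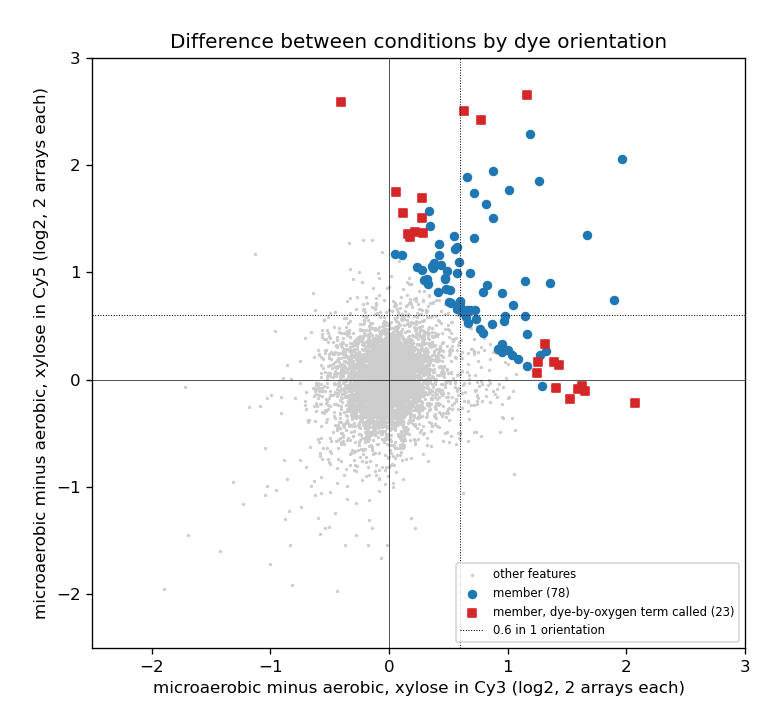
Difference between conditions, microaerobic minus aerobic on the log2 scale, where the xylose RNA carried Cy5 (vertical axis, 2 arrays per condition) against Cy3 (horizontal axis, 2 arrays per condition), with other complete features in grey and dotted lines at 0.6. The 29 members that met 0.6 in both orientations lie in the upper right, and the 23 called for dye by oxygen (squares) lie mostly along the edges, with KH-0767 at the upper left.

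Identifiers that follow each other occurred 3 times among the members, in a run of 3 and in a separate pair. Whether this is more often than in a random draw of identifiers was not tested. Whether neighbouring identifiers mean neighbouring genes is not stated in the sources used here. In the run of 3, the 2 later features had similar profiles, with a median gap of 0.065 and a largest gap of 0.35 between them over the 8 arrays. Their means were -0.11 and -0.20 in microaerobic cells and -0.865 and -0.90 in aerobic cells, both in the class lowered in aerobic cells only. The first of the run had a mean of 0.52 in microaerobic and -0.12 in aerobic cells, so the 3 features share a difference of 0.645 to 0.7525 at different levels.

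The separate pair had means of 1.265 and 1.08 in microaerobic and of 0.48 and 0.325 in aerobic cells, and both belong to the class raised in both. The median gap between the features was 0.125 and the largest 0.49. Both differed between the dye orientations in the same way. Their differences were 0.14 and -0.085 in Cy5, and 1.435 and 1.59 in Cy3, and both were called for dye by oxygen. Whether such features share sequence, and so could bind the same labelled cDNA, was not tested.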

How the data were processed

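The authors deposited 1 ratio per feature and array for 8 two-colour arrays, taken here as log2 values. Per the labels' protocols, 30 µg of total RNA of each sample was reverse transcribed and labelled with Cy3 or Cy5. For scanner, background correction, normalization and log base, the methods were not given in the sources used here, and spots without reliable signal are unmarked. Arrays held 5493 to 5677 values with medians from -0.03 to 0 and SDs from 0.337 to 0.425, and the number of arrays limits the precision. Features without all 8 values could not be members: 123 have no value and 359 lack some.

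Ratios were fitted with limma 3.58.1 in R 4.3.3 (lmFit, eBayes), with 1 coefficient per condition, contrasts for each condition, their difference and their mean, and Benjamini-Hochberg adjustment over all 5674 tested features. A dye term, a dye-by-oxygen term and the alternatives of the closing section were fitted apart. The dye term was tested for 5660 features and the dye-by-oxygen term for 5628. Their adjusted p-values and shares of tested features refer to those numbers. The fit was tested on simulated data with independent noise on each array, so shared deviations between arrays were not covered. Identified features are the members with the largest difference in 4 of the 5 classes. Members, classes, tests and this rule were chosen with earlier results of these data known. Arrays of the same dye and number deviated together across the conditions, with correlations of 0.21 to 0.34 across features, so they were treated as paired in a fit with a replicate block, which moved the counts called for the difference, each condition and their mean by less than 1.5 times; the dye tests were not run with it.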

Additional observations from a re-analysis of the deposited data

Results flagged for a closer look

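In the 13 members of opposite signs, the class median on aerobic array cy5-2 stood far from those of the other aerobic arrays, at -0.81 against -0.48 to -0.47, a gap of 0.971 of the group's whole range. Chance sets about 1 in 20 such groups apart, and 20 groups of 4 values were examined. KH-2901 was positive on all 4 microaerobic and negative on all 4 aerobic arrays, with a difference of 2.01. That difference chose it, so its limma call for the difference is a description only. In KH-0767 the difference between conditions was 2.99 larger in Cy5 than in Cy3 arrays (limma adjusted p = 1.3e-05). The dye-by-oxygen term was called in 23 members by the same test (1.55% of tested features). That test was chosen after the dye split had been seen, and the share called is not free of the selection. Whether Cy5 and Cy3 arrays share RNA is not stated, so dye and RNA cannot be told apart.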

How the results depend on the processing

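The number of members was 179 on Cy5 arrays alone, 38 with a limit of 0.8 and 29 with the limit met in both orientations. Leaving out each array in turn gave 88 to 111, with 76 to 90 of the 101 members among them. Of the 101, 91 met the limit after quantile normalization, 70 on Cy5 arrays alone and 60 on Cy3 arrays alone, where 151 features met it. Members called for the difference numbered 71 with a dye term (1.8% of tested features), 101 with same-number arrays averaged (3.49%), 97 with dye and dye-by-oxygen terms (3.56%), 48 with the replicate block (1%), and 18 to 28 without 1 array (0.318% to 0.55%), against 35 and 0.687% as reported. The averaging and the dye-by-oxygen term take disagreement between the dyes out of the spread used for these calls. Members called for the dye numbered 5 after quantile normalization and 4 to 14 without 1 array, and those called for dye by oxygen 8 to 31 without 1 array. Both dye tests were given their alternatives after the data were seen. Counts called in each condition and for their mean stayed within 1.5 times under every alternative run. Shares of tested features called moved as well. They ran from 12.1% to 29.2% in microaerobic cells, 6.29% to 19.6% in aerobic cells and 21.6% to 37.1% for the mean. Single-dye values of the 4 identified features were added after the data were seen. The difference of KH-0767 turned to -0.405 on Cy3 arrays alone and was 2.585 on Cy5 arrays alone, while the others kept their sign; under the other alternatives run, all 4 differences stayed within 1 SD of their arrays. From limma calls in place of the limit of 0.3, 8 members had opposite signs and 11 were raised in both. Without microaerobic array cy5-2, 5 members were lowered in both. The causes were not tested. Without spot intensities, the detection limit of a feature is unknown.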
